A study of Mus musculus with 24 samples.

Results

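Aminoacyl-tRNA synthetases are the enzymes that join each amino acid to its tRNA, and the charged tRNAs are what the ribosome reads. Mammals have a cytosolic set and a mitochondrial set. Most of the second are separate nuclear genes with the suffix 2 in their symbols. Several cytosolic enzymes sit in one large multisynthetase complex held together by scaffold proteins, and many cytosolic synthetase genes are textbook targets of ATF4, the transcription factor of the amino acid response. The genes described here were chosen by symbol: all 37 of 37 named synthetases matched an identifier among the 17721 genes of the authors' deposited table, 21 of them cytosolic and 16 mitochondrial. Gars and Kars each give a cytosolic and a mitochondrial enzyme from 1 gene and are counted as cytosolic here. Eprs charges tRNAs with glutamate and with proline, and Farsa and Farsb are the subunits of 1 enzyme.

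The series compares daily gene expression in the back skin epidermis of 8-week-old male C57BL/6 mice with a knockout of Bmal1, a core clock activator with the gene symbol Arntl, made by a Cre recombinase under the keratin 14 promoter (called EpiKO). That promoter is active in basal keratinocytes and other stratified epithelia, so the clock is meant to be missing in the epidermis and present elsewhere. The 24 EpiKO libraries cover 6 times of day, 4 h apart from ZT0 (lights on) to ZT20 in a cycle with 12 h light and 12 h dark, with 4 mice at each, and they were set against wild-type (WT) epidermis whose libraries are not samples of this series. Whether the WT mice carried Cre or floxed alleles is not given here. The comparison was made by dryR, which fits 1 cosine curve of 24 h per gene and genotype. Its output gives no value per library, so depth is unknown and no standard deviation or test over mice can be had. Effects of genotype and of separate library sets cannot be told apart. Fewer cells of a type and less RNA per cell cannot be told apart in these bulk samples either.

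Each gene has a weight from 0 to 1 for each of 5 rhythm models, which sum to 1: no rhythm, a rhythm in WT only, in EpiKO only, the same curve in both genotypes, or a different curve in each. A gene was put in the class of its largest weight where that was at least 0.5. Weights are not p-values, and for the same-rhythm class the peak time and amplitude are equal in the genotypes because the model has 1 curve. Amplitudes are given as the fold of peak over trough.

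As checks on the samples, Arntl itself had a WT-only rhythm of 4.65-fold (weight 0.882) in the authors' deposited table. Its mean was not lower in EpiKO but higher by 0.16 (log2; weight 0.719 for unequal means, from the authors' deposited table). Which exons the deletion removes is not stated here, so the mean level over the gene does not check it. The clock genes Per2 and Nr1d1 had fitted EpiKO rhythms of 2.91-fold and 3.08-fold, against 69.6-fold and 17.2-fold in WT, per the authors' deposited table. The keratinocyte markers Krt5, Krt14, Krt1, Krt10, Itga6 and Trp63 had mean levels between 13.89 and 17.78 (log2, both genotypes averaged), and 11 markers of other cell types lay between -2.21 and 7.99. Of those 11, 4 had higher means in EpiKO in the authors' deposited table: endothelial Cdh5 by 2.33 and Pecam1 by 0.51, Cd207 of Langerhans cells by 1.49 and Ptprc of leukocytes by 1.06 (log2). The 2 endothelial markers lay at low levels in the authors' deposited table. Cdh5 had means of 0.56 in EpiKO and -1.77 in WT (weight 0.840 for unequal means), and Pecam1 3.42 and 2.91 (weight 0.789). Smooth muscle Myh11 was the 1 lower marker, with a difference of -4.34 in the authors' deposited table, and the other 6, among them Cd3e of T cells, had no called difference. Their part in the differences of mean described further on was not tested.

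Promoters are shown first for the synthetases that hold the letters of either of 2 elements, and for Qars as the contrast in peak time. Eprs, Farsa, Mars1, Sars and Yars and mitochondrial Rars2, Tars2 and Yars2 have shared rhythms that peak in the dark phase. These genes held neither element and are not shown. The CARE, read by ATF4 with a C/EBP partner, was searched as TGATGNAA, and the E-box CACGTG, which BMAL1 with CLOCK and also MYC can bind, as its own palindrome. Both strands of the 250 bases before the start site were searched in RefSeq promoters of GRCm38.p6, where 28 of 37 synthetases had an entry. Cars, Hars, Hars2, Lars, Nars, Pars2, Rars, Vars and Wars had none. The last 150 bases before the start of 6 promoters follow, 5′ to 3′ on the gene's strand, with CARE and E-box letters in capitals. The first 3 hold a CARE, and Aars, Iars and Farsb hold an E-box. Qars holds neither and is the only same-rhythm cytosolic synthetase with a peak in the light phase. Mitochondrial Iars2, with a shared rhythm that also peaks in the light phase, held neither and is not shown.
Aars (chr8:111033692-111033841, plus strand): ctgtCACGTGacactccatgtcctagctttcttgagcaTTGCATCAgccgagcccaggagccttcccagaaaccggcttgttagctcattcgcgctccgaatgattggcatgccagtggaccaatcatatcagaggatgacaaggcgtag
Gars (chr6:55037851-55038000, plus strand): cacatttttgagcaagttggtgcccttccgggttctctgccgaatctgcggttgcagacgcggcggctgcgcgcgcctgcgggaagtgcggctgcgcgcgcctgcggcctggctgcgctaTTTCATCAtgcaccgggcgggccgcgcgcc
Tars (chr15:11399659-11399808, minus strand): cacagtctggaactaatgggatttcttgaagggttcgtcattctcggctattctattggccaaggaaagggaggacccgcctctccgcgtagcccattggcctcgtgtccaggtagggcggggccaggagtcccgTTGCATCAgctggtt
Iars (chr13:49681980-49682129, plus strand): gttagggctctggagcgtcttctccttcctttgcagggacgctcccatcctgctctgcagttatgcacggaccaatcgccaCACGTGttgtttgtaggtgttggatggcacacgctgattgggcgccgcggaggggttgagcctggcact
Farsb (chr1:78488898-78489047, minus strand): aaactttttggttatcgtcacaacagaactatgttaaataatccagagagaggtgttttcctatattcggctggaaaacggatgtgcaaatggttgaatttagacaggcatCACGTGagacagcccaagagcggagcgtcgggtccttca
Qars (chr9:108507855-108508004, plus strand): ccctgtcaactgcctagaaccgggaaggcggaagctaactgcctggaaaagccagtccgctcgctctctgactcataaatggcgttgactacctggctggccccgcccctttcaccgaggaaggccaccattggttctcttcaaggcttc

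Of 14 cytosolic synthetases with a promoter entry, 3 held a CARE (21.4%) and 3 an E-box, and of 14 mitochondrial ones 0 held either. The CARE was found in 3.45% and the E-box in 6.02% of all 32851 promoters of this length, and in 2.21% and 7.74% of 13583 genes of the deposited table taken with 1 promoter each. The CARE began 112 bases before the start site in Aars, 30 bases before it in Gars and 15 bases before it in Tars. The E-box began 146, 69 and 39 bases before it in Aars, Iars and Farsb. A match is a description of the letters, and no binding was measured.

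Most cytosolic synthetases cycled with the same curve in both genotypes. This class held 13 of 21 cytosolic genes (61.9%), against 16.7% of all genes of the table and 24.9% of genes at or above the table's median level, where all 21 lie. A WT-only rhythm was assigned to 3 cytosolic genes (8.41% of all genes), an EpiKO-only rhythm to 0 (4.31%) and different rhythms to 1 (2.65%). No rhythm was assigned to 2 (56.7%), and 2 were left without a class (11.3%). The percentages describe the table, and the counts of synthetases were not tested against them.

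**Figure D1:**
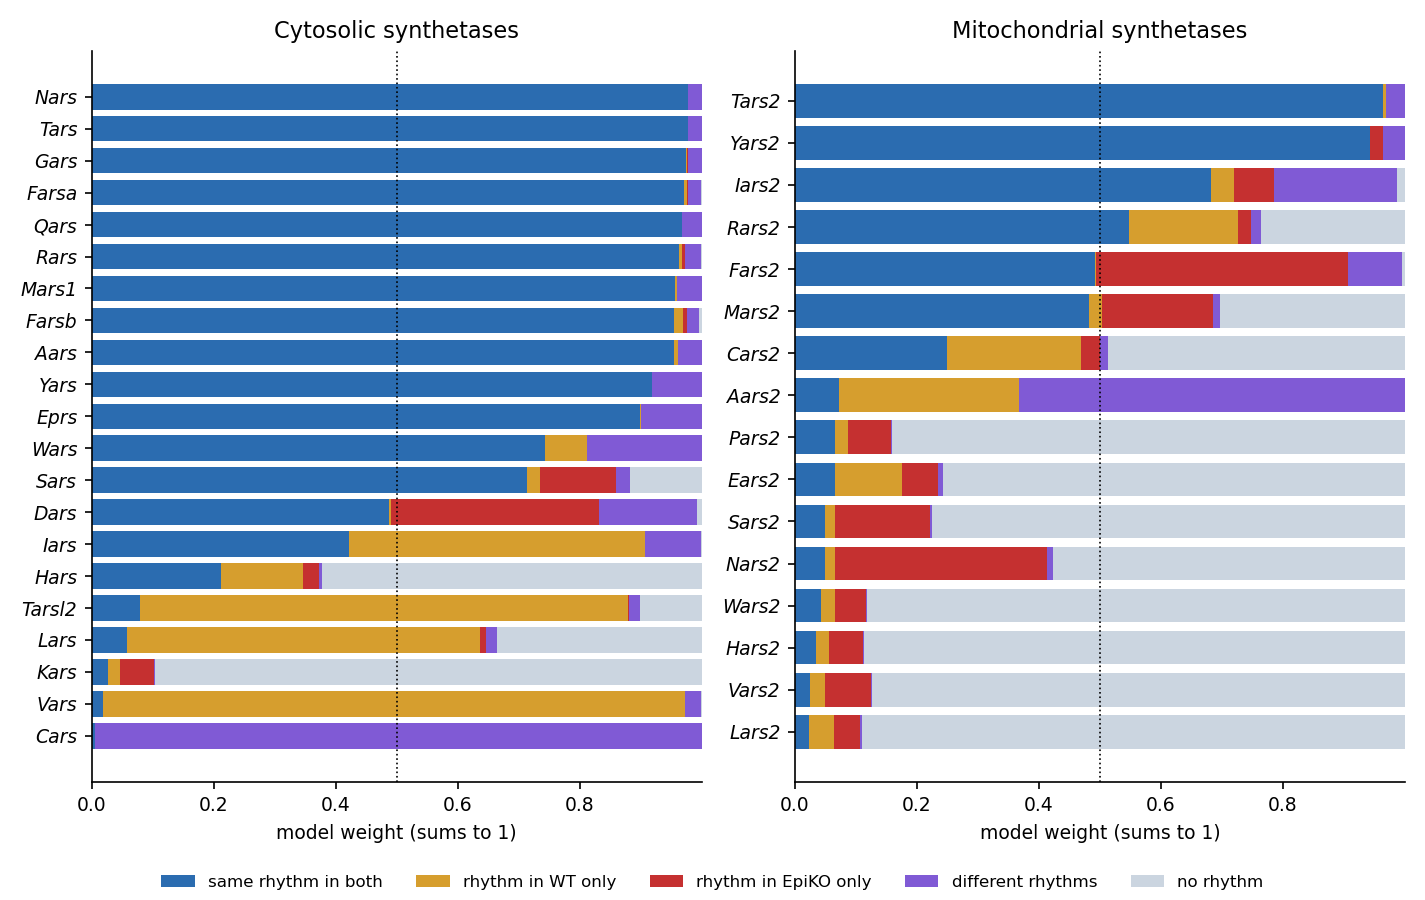
Weights of the 5 rhythm models for each cytosolic (left) and mitochondrial (right) synthetase, as stacked bars that sum to 1, ordered by the weight of the same-rhythm model. The dotted line marks the limit of 0.5, which 13 cytosolic and 4 mitochondrial genes pass for the same-rhythm model.

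The shared peaks lay together in the dark phase. Of the 13 cytosolic genes, 12 peaked between ZT12 and ZT24 (92.3%), and 10 between ZT16 and ZT20 (76.9%), where 29.2% of all 2954 same-rhythm genes peaked. Their circular mean was ZT18.6, with a resultant length of 0.792 on a scale from 0 for peaks spread evenly to 1 for a single time. All same-rhythm genes had a resultant length of 0.0740, with many peaks in the light phase as well. Amplitudes were small, at a median of 1.22-fold and a range of 1.07-fold to 1.34-fold, and the median of all same-rhythm genes was 1.24-fold.

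Yars, the tyrosyl enzyme, had the largest amplitude of these 13 (ENSMUSG00000028811; chromosome 4, 129189760 to 129219607, mm10). In WT its fitted level in the authors' deposited table ran through 9.41, 9.23, 9.23, 9.41, 9.59 and 9.60 (log2) at ZT0, ZT4, ZT8, ZT12, ZT16 and ZT20. The EpiKO curve had the same shape with a mean of 9.48 against 9.41, and the fold was 1.34 with a peak at ZT18.1 and a weight of 0.918. Among the sampled times the curve was lowest at ZT4 and ZT8 and highest at ZT16 and ZT20.

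Alanyl and tryptophanyl enzymes followed in size. Aars was 1.28-fold with a peak at ZT19.6 (weight 0.955) and Wars 1.27-fold at ZT21.0 (weight 0.743), with equal means in the genotypes for both, in the authors' deposited table. Wars was the latest of the 13. Of the exons of Aars, 14.3% overlap Exosc6 on the same strand, and Exosc6 had a WT mean of 7.88 and an EpiKO mean of -2.41 (log2) per the authors' deposited table, while the means of Aars were equal.

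Tars, for threonine, was 1.26-fold at ZT18.3 and Gars, for glycine, 1.22-fold at ZT19.7 in the authors' deposited table. With Aars these are the 3 genes with a CARE among the 28 synthetases that had a promoter entry. Mars1, the methionyl enzyme that also charges the initiator tRNA, was 1.25-fold at ZT18.9 in the authors' deposited table and held no such letters. A part of the element in these peak times was not tested. Mars1 is named Mars in the annotation used. Its exons overlap 68 bases of Ddit3 on the opposite strand, and Ddit3 had an EpiKO-only rhythm that peaked at ZT0.877 in the authors' deposited table.

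The subunits of the phenylalanyl enzyme peaked close to each other, Farsa at ZT18.1 (1.22-fold) and Farsb at ZT19.1 (1.19-fold), in the authors' deposited table. Of the exon bases of Farsb, 9.47% overlap Sgpp2 on the opposite strand. Sgpp2 had means of 6.61 in WT and 2.64 in EpiKO (log2) in the authors' deposited table. The part of this overlap in the values of Farsb was not tested. Eprs peaked at ZT19.4 (1.22-fold, weight 0.899) and Rars, for arginine, at ZT19.3 (1.18-fold, weight 0.963) in the authors' deposited table. Nars, for asparagine, had a weight of 0.977 with a small fold of 1.14 at ZT17.8 in the authors' deposited table.

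Qars, for glutamine, ran against the others (ENSMUSG00000032604; chromosome 9, 108507706 to 108515941, mm10). In WT its fitted level in the authors' deposited table was 11.55, 11.71, 11.79, 11.71, 11.55 and 11.47 (log2) from ZT0 to ZT20 in steps of 4 h. It was highest at ZT8, when the fitted levels of Aars, Eprs, Farsb, Gars, Mars1, Rars, Tars and Wars were at their lowest sampled value. Its peak at ZT8.06 with 1.25-fold and a weight of 0.967 makes it the single same-rhythm cytosolic gene with a peak in the light phase in the authors' deposited table. Only 0.540% of the 51-base windows of its transcripts occur in another gene.

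Sars, for serine, was the weakest of the class, 1.07-fold (1.075 before rounding) at ZT15.0 with a weight of 0.713 per the authors' deposited table. The other 11 cytosolic genes lay between ZT17.8 and ZT21.0.

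**Figure D2:**
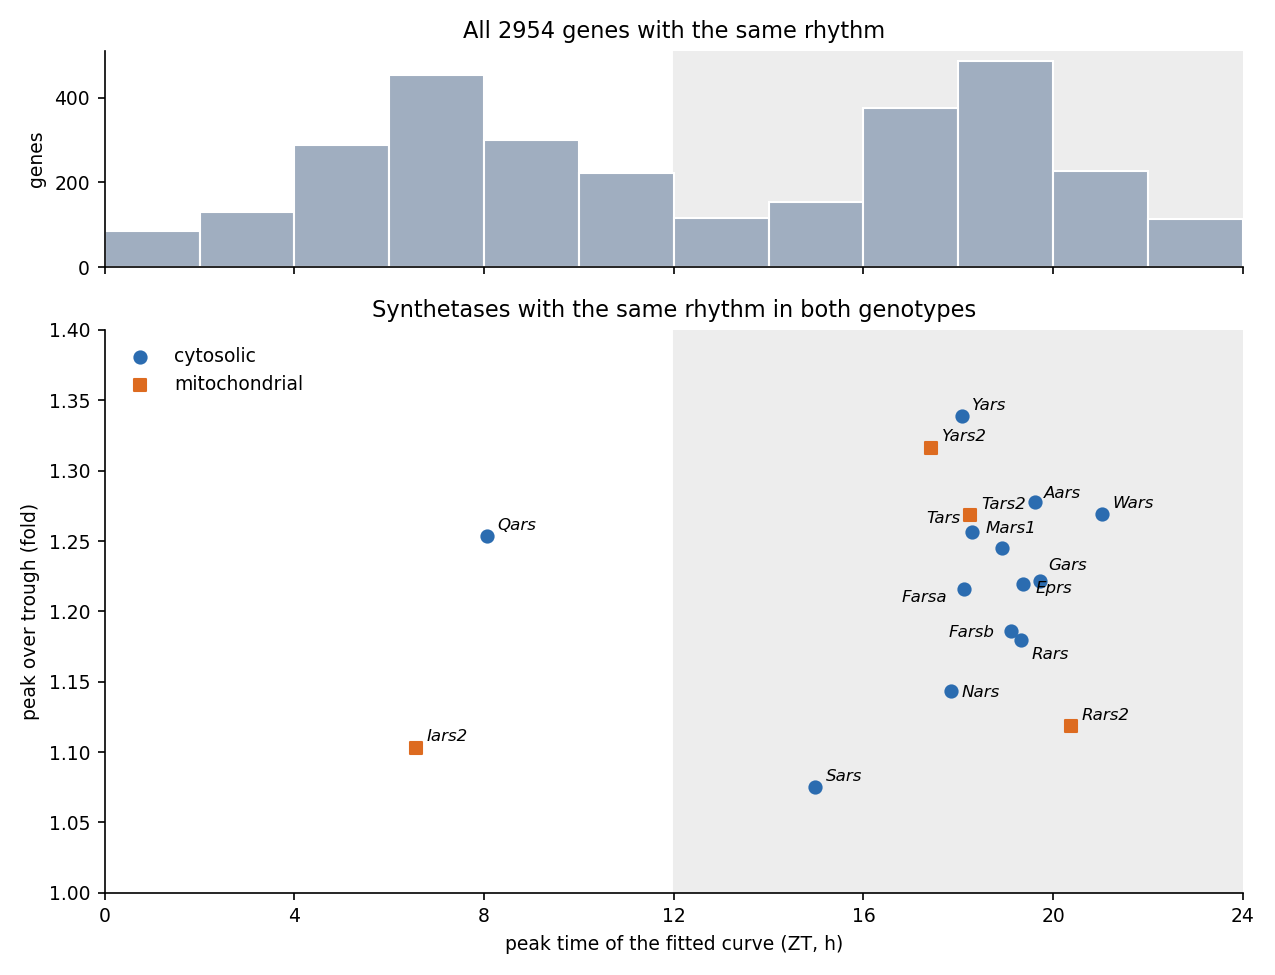
Peak time (ZT, h) of all 2954 same-rhythm genes in bins of 2 h (top), and peak time against peak-over-trough fold for the synthetases of that class (bottom); grey marks the dark phase. Qars at ZT8.06 and Iars2 at ZT6.57 stand in the light phase, and the other 15 synthetases in the dark phase.

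The fitted rhythm differed between genotypes for 4 cytosolic synthetases. Cars, for cysteine (ENSMUSG00000010755; chromosome 7, 143557230 to 143600090, mm10), had different curves (weight 0.995 in the authors' deposited table). Its fitted WT level was 9.27, 9.11, 9.20, 9.46, 9.62 and 9.53 (log2) at the 6 sampling times from ZT0, and its EpiKO level 9.45, 9.29, 9.20, 9.28, 9.44 and 9.53, from the authors' deposited table. The curves meet at ZT8 and ZT20 and lie furthest apart around ZT0 to ZT4 and ZT12 to ZT16. The peak moved from ZT16.6 in WT to ZT20.1 in EpiKO, 3.54 h later, and the fold from 1.44 to 1.26, in the authors' deposited table. In EpiKO its peak was thus within the span from ZT17.8 to ZT21.0 that held 11 of the 13 shared peaks, and in WT it came before that span.

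Vars, for valine (ENSMUSG00000007029; chromosome 17, 35000987 to 35016322, mm10), cycled in WT with 1.24-fold, peaked at ZT17.4 and had a flat fitted curve in EpiKO (weight 0.954, from the authors' deposited table). Its WT level was 10.81, 10.69, 10.72, 10.86, 10.98 and 10.96 (log2) at the sampling times from ZT0, against 10.61 at all times in EpiKO, from the authors' deposited table. The flat EpiKO level lay below every sampled WT value. Tarsl2, a second cytosolic threonyl enzyme, followed with 1.23-fold at ZT16.3 in WT (weight 0.80, from the authors' deposited table), while its relative Tars had a rhythm in both genotypes. Lars, for leucine, was WT-only at a weight of 0.579 with 1.15-fold at ZT23.4 in the authors' deposited table, so its class is the least certain of the 4.

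The genes left without a class were near the limit. Dars, for aspartate, had 0.488 for the same rhythm and 0.341 for EpiKO only in the authors' deposited table. Iars, for isoleucine, had 0.484 for WT only and 0.422 for the same rhythm with a WT peak at ZT19.1 in the authors' deposited table, and 6.85% of its windows occur in a processed pseudogene, Gm4849. Both had most of their weight on models with a rhythm. Kars, for lysine, was assigned no rhythm at 0.897 and Hars, for histidine, at 0.623, in the authors' deposited table. Hars shares 195 exon bases with its neighbour Hars2 on the opposite strand.

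**Figure D3:**
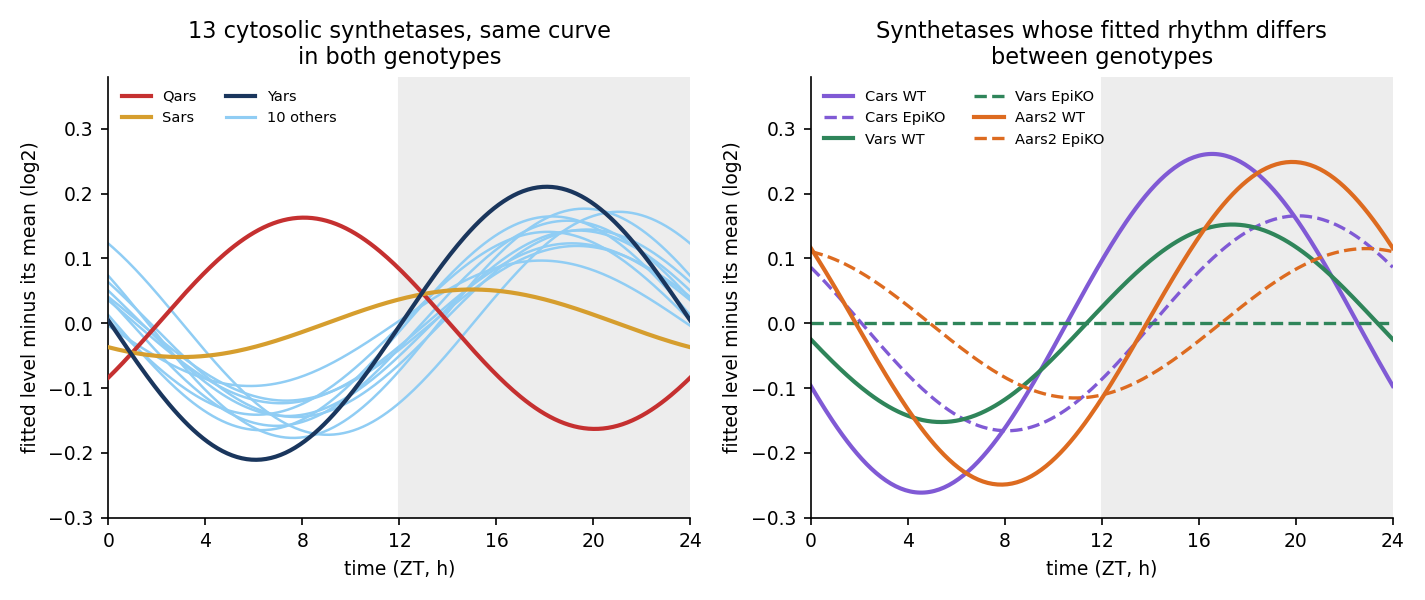
Fitted level minus its mean (log2) over the day for the 13 same-rhythm cytosolic synthetases (left, WT curves; EpiKO curves are identical) and for Cars, Vars and Aars2 in WT (solid) and EpiKO (dashed) (right); grey marks the dark phase. Qars is highest at ZT8.06, Cars peaks 3.54 h later in EpiKO, and Vars is flat there.

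The enzymes of the multisynthetase complex were spread over several classes. Of the 8 enzymes Eprs, Mars1, Rars and Qars had the same rhythm in both genotypes, with Qars in the light phase, Lars was WT-only, Kars had no rhythm, and Dars and Iars had no class. The scaffold proteins of the complex are Aimp1, Aimp2 and Eef1e1, and all 3 had a shared rhythm (16.7% of all genes). They peaked at ZT9.57, ZT16.8 and ZT17.9 with 1.15-fold, 1.19-fold and 1.25-fold in the authors' deposited table.

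The mitochondrial enzymes had class shares near those of the table. No rhythm was assigned to 8 of 16 (56.7% of all genes), Ears2, Hars2, Lars2, Nars2, Pars2, Sars2, Vars2 and Wars2, with weights from 0.577 for Nars2 to 0.891 for Lars2 in the authors' deposited table. The same rhythm was assigned to 4 (25%, against 16.7% of all genes and 24.9% of those at or above the median level), different rhythms to 1, a rhythm in WT or EpiKO alone to 0, and 3 had no class. These shares were not tested against the cytosolic ones, and 14 of 16 mitochondrial genes lie at or above the table's median level. No rhythm was assigned to 3594 of the 8861 genes at or above that level, a smaller share than over all genes.

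Yars2 (1.32-fold at ZT17.4, weight 0.943) and Tars2 (1.27-fold at ZT18.3, weight 0.964) had the clearest shared rhythms of the mitochondrial set in the authors' deposited table. Both peaked within an hour of their cytosolic relatives Yars and Tars. Rars2 was 1.12-fold at ZT20.4 with a weight of 0.548 per the authors' deposited table. Of 13 pairs of a cytosolic and a mitochondrial enzyme for 1 amino acid, 3 had a shared rhythm in both genes: Rars with Rars2, Tars with Tars2 and Yars with Yars2. A shared rhythm was assigned to 13 of 21 cytosolic and 4 of 16 mitochondrial genes, and a relation between partners was not tested.

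Iars2 peaked in the light phase, at ZT6.57 with 1.10-fold and a weight of 0.682 per the authors' deposited table (chromosome 1, 185284726 to 185329396, mm10). Of its exon bases, 22.9% overlap Rab3gap2 on the opposite strand, which was assigned a shared rhythm with a peak at ZT7.27 and 1.13-fold in the authors' deposited table. Whether reads were counted by strand is not stated here, and the part of the overlap in the rhythm of Iars2 was not tested.

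Aars2, the mitochondrial alanyl enzyme (ENSMUSG00000023938; chromosome 17, 45506841 to 45520843, mm10), had different curves at a weight of 0.632, with 0.295 for WT only, in the authors' deposited table. Its WT level was 8.63, 8.38, 8.26, 8.40, 8.64 and 8.76 (log2) at the sampling times from ZT0 and its EpiKO level 8.62, 8.54, 8.43, 8.40, 8.48 and 8.60, from the authors' deposited table. The EpiKO curve was the flatter of the pair, 1.17-fold against 1.41-fold, and peaked at ZT22.9, 3.06 h after the WT peak at ZT19.9, in the authors' deposited table. Cytosolic Aars had a shared rhythm. Cars2, Fars2 and Mars2 had no class, with largest weights of 0.487 for no rhythm and 0.493 and 0.483 for the same rhythm in the authors' deposited table.

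Mean levels of the cytosolic set were mostly a little higher in EpiKO. The table weighs equal against unequal means, and a mean was taken as different where the second had a weight of at least 0.5. It was higher in EpiKO for 15 of 21 cytosolic genes (32.7% of all genes) and lower for 2, Iars and Vars (37.4% of all genes). At or above the table's median level, where all 21 lie, 3935 of 8861 genes were higher and 3251 lower. The counts of synthetases were not tested against these. The differences were small, from -0.23 to 0.38 (log2, EpiKO minus WT) with a median of 0.12, against a median of 0.00 over all genes. Dars (0.38), Qars (0.37), Nars (0.35) and Rars (0.32) differed most in the authors' deposited table. Kars (0.06) and Yars (0.07) differed least, with weights of 0.671 and 0.510 for unequal means in the authors' deposited table. Aars, Cars, Tarsl2 and Wars had equal fitted means.

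**Figure D4:**
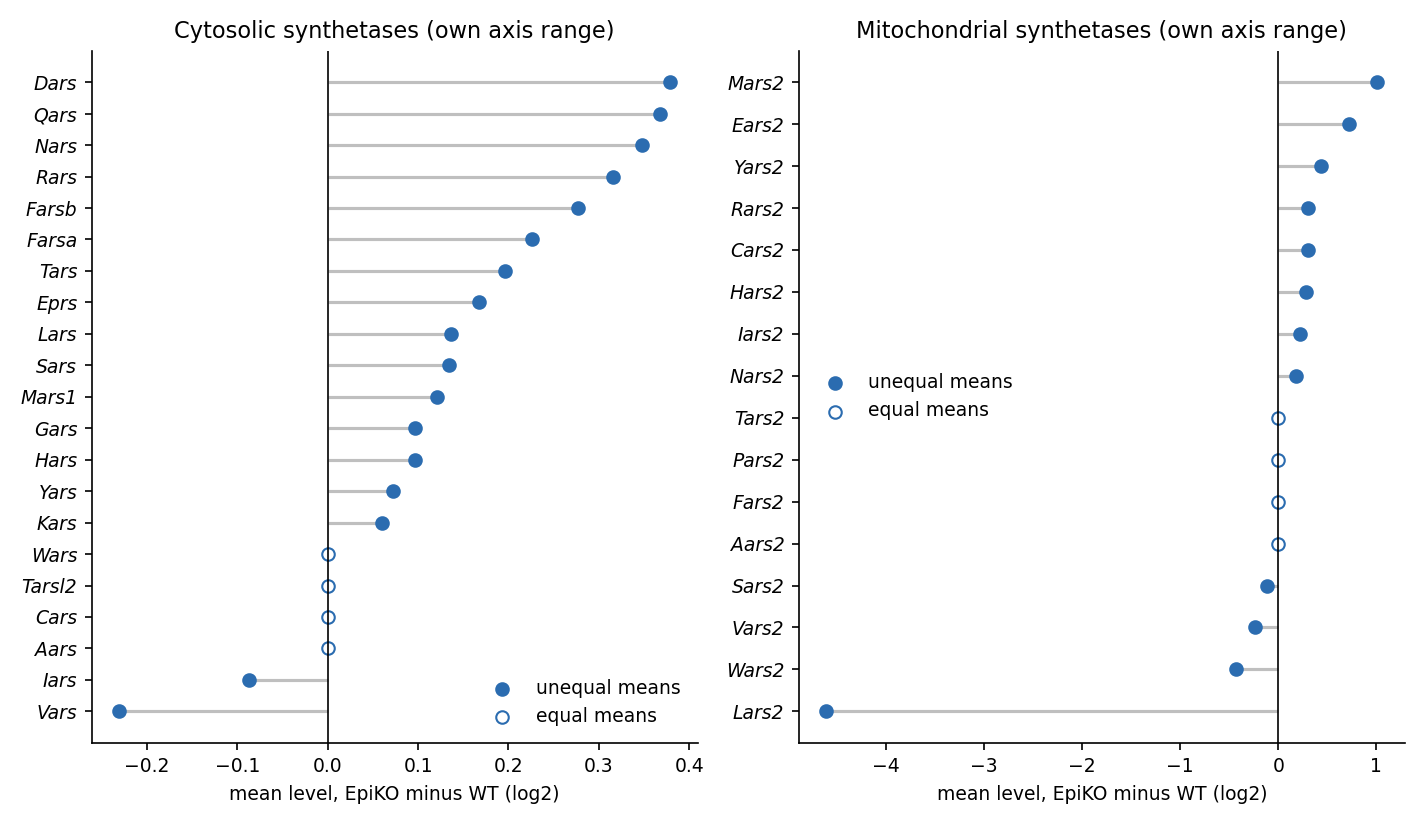
Difference in mean level, EpiKO minus WT (log2), of each cytosolic (left) and mitochondrial (right) synthetase; filled points have unequal means, open points equal means, and each panel has its own axis range. Cytosolic differences run from -0.23 to 0.38, and Lars2 at -4.61 stands apart among mitochondrial ones.

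Among mitochondrial genes 8 of 16 were higher (32.7% of all genes) and 4 lower in EpiKO (37.4% of all genes). At or above the table's median level, 3935 of 8861 genes were higher and 3251 lower, and the counts were not tested against these. Mars2 was higher by 1.01 (7.86 in WT, 8.87 in EpiKO) and Ears2 by 0.72 (7.89 and 8.61) in the authors' deposited table (log2). Yars2 was higher by 0.43 and Wars2 differed by -0.43 in the authors' deposited table. Lars2, the mitochondrial leucyl enzyme (ENSMUSG00000035202; chromosome 9, 123366927 to 123462666, mm10), had a log2 mean of 15.62 in WT and 11.01 in EpiKO per the authors' deposited table, a difference of -4.61 or a 24.4-fold higher level in WT. It was flat in both genotypes. No other synthetase differed by 2 (log2) or more, while 11.2% of all genes were lower and 1.03% higher in EpiKO by that much. Of the 11220 transcript windows of Lars2, 20 occur in another annotated gene (0.178%). Sequences outside the annotated transcripts were not searched, and a part of reads from them was not tested. An effect of the knockout and of the library sets cannot be told apart for this gap.

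Companion genes of translation were described with the same classes. Their lists were written from general knowledge, but with earlier results of these data known. Of 7 cofactors and helpers of charging, 4 had the same rhythm in both genotypes and 2 a WT-only one. Over all genes these shares were 16.7% and 8.41%, and the first was 24.9% at or above the median level. The glutamyl-tRNA amidotransferase makes mitochondrial glutaminyl-tRNA in place of a mitochondrial Qars. Its subunits Qrsl1 (1.38-fold at ZT21.7) and Gatb (1.18-fold at ZT21.9) were WT-only and Gatc (1.17-fold at ZT17.5) shared in the authors' deposited table. Mtfmt, which formylates the initiator tRNA, had no rhythm.

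A shared rhythm was assigned to 7 of 13 genes of tRNA processing and delivery (16.7% of all genes), with peaks from ZT10.7 to ZT22.9. The elongation factors Eef2 (1.28-fold at ZT10.8) and Eef1a1 (1.22-fold at ZT10.7) peaked late in the light phase, and the tRNA exporter Xpot (1.23-fold at ZT18.0) with the synthetases, in the authors' deposited table. Aarsd1, which removes wrongly attached amino acids from tRNA, was WT-only (1.43-fold at ZT17.4), with log2 means of 8.55 for WT and 3.30 for EpiKO, in the authors' deposited table. Of 27 initiation factors 10 had a shared rhythm (16.7% of all genes), with a mean peak at ZT16.2, and 10 had none (56.7% of all genes). Eif3e had different rhythms (1.27-fold at ZT10.3 in WT, 1.37-fold at ZT13.2 in EpiKO) and Eif2s3x an EpiKO-only one (1.22-fold at ZT11.7) in the authors' deposited table. Eif4b peaked at ZT9.03 (1.26-fold) and Eif2b3 at ZT17.7 (1.23-fold) in the authors' deposited table.

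Of 30 genes of the amino acid response 7 had a shared rhythm (23.3%), against 16.7% of all genes and 24.9% of those at or above the median level. A WT-only rhythm was assigned to 8 (8.41% of all genes), an EpiKO-only one to 2 (4.31%), different rhythms to 1 (2.65%), none to 8 (56.7%) and no class to 4 (11.3%). Shared peaks ran from ZT0.150 to ZT20.5 with a resultant length of 0.391. Atf4 itself was assigned no rhythm with a weight of 0.870, and its mean was higher in EpiKO by 0.73 (log2), in the authors' deposited table. Stc2 (4.19-fold at ZT13.3) and the transporter Slc7a5 (2.18-fold at ZT12.6) were shared, and the enzymes Mthfd2 (3.17-fold at ZT19.4) and Chac1 (2.05-fold at ZT15.5) were WT-only, in the authors' deposited table. Asns, asparagine synthetase, was WT-only at 0.604 with a peak at ZT18.8 in the authors' deposited table.

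A shared rhythm was assigned to 14 of 18 unfolded protein response genes (mean peak ZT20.1, median 1.52-fold) and to 20 of 28 ribosome biogenesis genes (ZT16.4, 1.24-fold). The share was 16.7% over all genes and 24.9% over those at or above the median level. The cytosolic synthetases, at ZT18.6 and 1.22-fold, fell between these groups in time and near the second in amplitude. The median of all same-rhythm genes was likewise 1.24-fold. The differences between these lists were not tested.

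**Figure D5:**
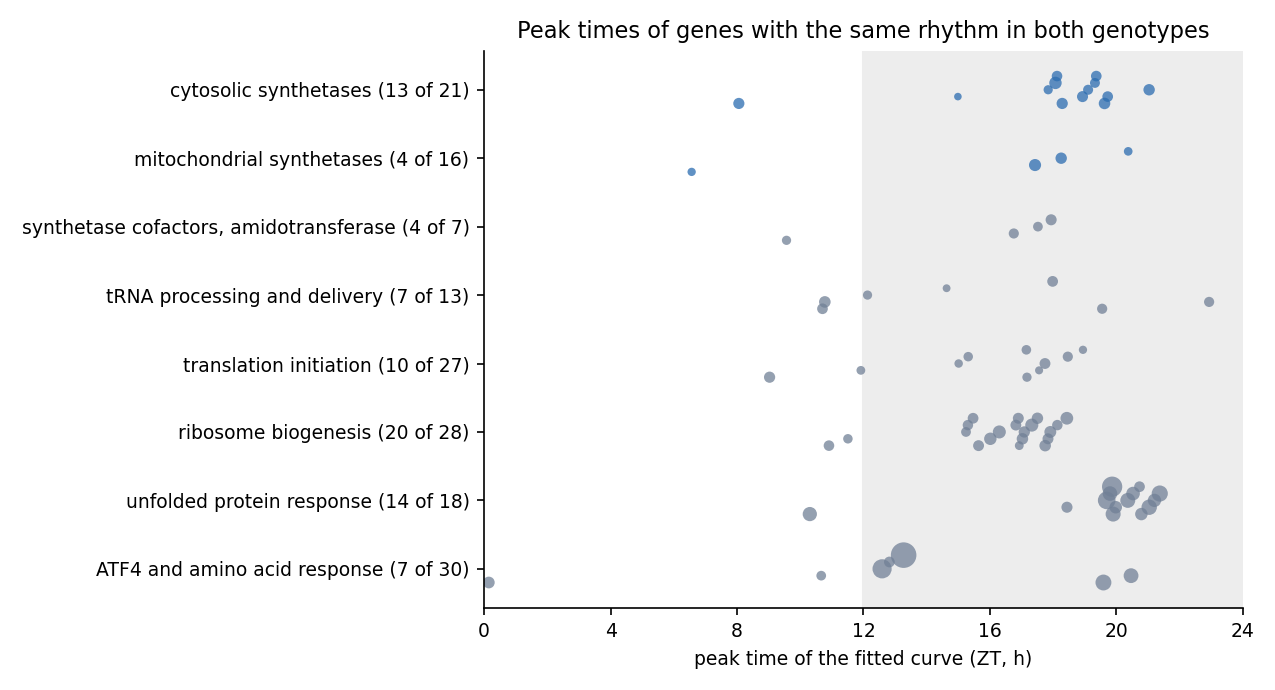
Peak time (ZT, h) of the genes with the same rhythm in both genotypes in each list, 1 point per gene, with larger points for larger amplitudes; counts give such genes of all measured genes of the list, and grey marks the dark phase. Of the 17 synthetases, 14 lie between ZT16 and ZT24, and the mean peaks are ZT16.4 for ribosome biogenesis and ZT20.1 for the unfolded protein response.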

How the data were processed

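Per the labels' protocols, epidermal cells were freed with dispase, polyadenylated RNA was made into stranded libraries, and single reads of 51 bases were sequenced. Per the submitters' processing notes, the genome build was mm10 and the tools were featureCounts 1.6.0, HISAT2 2.2.1, Trimmomatic 0.36, SAMtools 1.3.1 and edgeR. Their order and settings and the scaling of libraries are not stated there. The 1 table, per the series design text a dryR comparison, was used as the authors deposited it: model weights are scores from 0 to 1, and means are log2 values. Columns whose label lacks WT were read as EpiKO (no label states this), and models were read from which amplitudes are present. Recomputed from the cosine and sine coefficients, each amplitude matched a peak-to-trough log2 height within 1e-06.

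Fitted levels, folds, classes, circular means and counts were computed with Python 3.11.15, NumPy 2.4.6 and pandas 2.3.3, and checked on simulated curves with known peaks. No test across animals could be run on this table, and no list was tested, since genes are not replicates. Symbols (17720 of 17721 identifiers matched), positions and transcript windows come from GENCODE M21 (mm10). The members and lists were chosen with earlier results of these data known. Every synthetase is named; of each companion list, counts cover all measured members and up to 4 rhythmic members are named by amplitude, with some further members (Atf4, Asns, Gatc, Mtfmt and Aimp1) added after their values were seen. A companion gene is not reported here and was left out of its list. Alternatives were other weight limits (0, 0.4, 0.8), a minimum amplitude or mean difference of 0.25, a weight of 0.95 for means, centring on the median difference, members at or above the median level, and members with at most 5% of windows found in another gene, which for means was added after seeing the data.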

Additional observations from a re-analysis of the deposited data

Results flagged for a closer look

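Of the 37 synthetases, 3 had a summed weight of at least 0.9 on the models in which the daily rhythm differs between the genotypes (WT only, EpiKO only and different rhythms). Cars reached 0.995, nearly all of it on different curves in the genotypes, with a peak 3.54 h later in EpiKO. Vars reached 0.980, mostly on a rhythm in WT only. Aars2 reached 0.927, split between different curves (0.632) and WT only (0.295). These are weights from the authors' deposited table, and no test across animals was possible. The share of all genes that reach this sum was not computed. A genotype-dependent class, at the limit of 0.5, held 2724 of all 17721 genes and 1820 of the 8861 at or above the median level.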

How the results depend on the processing

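Of 68 values recomputed under alternatives, 52 stayed within 1.5 times the reported count or amplitude or within 1 h of the reported peak time, and 16 did not. These are not independent checks. All 21 cytosolic genes lie at or above the median level, so that setting could not change their values. The weight limits of 0 and 0.4 gave the same values as each other. The median difference was 0.00, so centring repeated the minimum mean difference of 0.25. With a weight limit of 0.8, cytosolic genes with a genotype-dependent rhythm numbered 2 and those with none 1, and mitochondrial genes numbered 2 with the same rhythm, 0 genotype-dependent and 5 with none. With a minimum amplitude of 0.25 (log2), 7 cytosolic genes had no rhythm and 2 mitochondrial genes the same rhythm. Among members with few shared windows, 1 cytosolic gene had no rhythm and 1 a lower mean in EpiKO. With a weight of 0.95 for means, 1 cytosolic gene was lower. With a minimum mean difference of 0.25, with or without centring, 5 cytosolic genes were higher and 0 lower, and 2 mitochondrial genes lower. By construction the stricter limits take genes out of a class, the minimum amplitude moves genes into the no-rhythm class, and the limit on shared windows leaves genes out. No paired analysis was possible because values for single libraries are not in the table used, so the planned replicate block and leaving out each replicate were not run. Depth is unknown, and small amplitudes such as that of Sars (1.07-fold) carry no error.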

Other observations

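Synthetases fall into class I and class II by the fold of their catalytic domain, and Eprs joins one of each. With Eprs counted as class I, 6 of 10 cytosolic class I genes and 7 of 11 class II genes were in the same-rhythm class. That class held 16.7% of all genes and 24.9% of those at or above the median level. A genotype-dependent rhythm was assigned to 3 of the 10 class I genes (Cars, Lars and Vars) and to 1 of the 11 class II genes (Tarsl2). It was assigned to 2724 of all 17721 genes and to 1820 of the 8861 at or above the median level. All 7 same-rhythm class II genes peaked in the dark phase, at a circular mean of ZT18.3. The 6 same-rhythm class I genes, Qars included, had a circular mean of ZT19.2. The classes were compared after the values were seen, and no difference was tested.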
